A study of Mus musculus with 6 samples.

Results

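Sox9, Sox5 and Sox6 are the 3 genes of the chondrogenic SOX trio, chosen here by symbol. All 3 symbols were among the 35976 genes of the count table. Polyadenylated RNA of mouse embryonic chondrocytes had been sequenced in 6 libraries, 3 in each of 2 groups. The cells were taken from hind limb articular cartilage at embryonic day 18.5 (strain C57BL/6 x 129S4/SvJae) and had undergone 16 population doublings on plastic. Both groups received doxycycline at 2 µg/ml, which induced a histone H3.3 transgene. In H3K9M (replicates 1, 3 and 5) this was a lysine-to-methionine mutant of H3.3, and the labels describe suppressed H3K9 methylation. In H3WT (replicates 1, 2 and 4) it was wild-type H3.3, so the control cells also carried the inducer and an H3.3 transgene. The promoter and the genomic site of the transgene are not given in the sources used here. Neither is whether the libraries of a group came from separate animals, so p-values measure the spread between these libraries. The comparison addresses what transcripts differ between expanded chondrocytes with and without suppressed H3K9 methylation.

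SOX9 is a transcription factor that binds DNA through a high-mobility-group (HMG) box and is required for cartilage formation. It activates genes of the cartilage matrix, such as those of collagen II and aggrecan. SOX5 and SOX6 are close relatives of each other (the SOXD group), have no transactivation domain of their own, and bind beside SOX9 at many of the same enhancers, where they strengthen its activity. In developing cartilage Sox5 and Sox6 need Sox9 for their own expression. Chondrocytes grown as a monolayer are known to lose their cartilage matrix genes, a process called dedifferentiation.

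The members lie on 3 chromosomes in the RefSeq annotation of GRCm38.p6, the mm10 build that the submitters' processing notes name. Sox9 is at chr11:112782210-112787757, Sox5 at chr6:143828425-144782287 and Sox6 at chr7:115470872-116040776. Sox9 spans 5.548 kb, Sox5 953.9 kb and Sox6 569.9 kb. The stretch of coding sequence that all 3 share is the HMG box, printed here to show how alike the members are in it. The sequences are from GENCODE M21 transcripts, run 5′ to 3′ over 225 bases, and carry capitals where all 3 members have the same base.
Sox9: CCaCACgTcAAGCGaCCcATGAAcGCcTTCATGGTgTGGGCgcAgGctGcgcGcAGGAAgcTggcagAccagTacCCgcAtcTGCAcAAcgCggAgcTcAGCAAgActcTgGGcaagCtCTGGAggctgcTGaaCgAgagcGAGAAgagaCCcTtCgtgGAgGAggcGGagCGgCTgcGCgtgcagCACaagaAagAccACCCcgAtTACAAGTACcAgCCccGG
Sox5: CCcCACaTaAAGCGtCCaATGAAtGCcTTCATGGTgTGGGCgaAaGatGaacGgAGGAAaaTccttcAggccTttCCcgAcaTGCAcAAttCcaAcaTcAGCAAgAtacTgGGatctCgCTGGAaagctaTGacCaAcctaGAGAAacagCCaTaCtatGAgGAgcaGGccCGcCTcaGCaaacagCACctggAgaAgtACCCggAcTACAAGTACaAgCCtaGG
Sox6: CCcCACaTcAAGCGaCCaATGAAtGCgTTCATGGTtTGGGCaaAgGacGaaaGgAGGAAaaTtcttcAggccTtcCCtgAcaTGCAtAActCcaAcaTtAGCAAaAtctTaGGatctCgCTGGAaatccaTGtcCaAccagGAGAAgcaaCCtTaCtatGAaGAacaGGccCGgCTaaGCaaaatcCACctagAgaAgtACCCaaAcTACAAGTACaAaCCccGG
The same base stood in all 3 members at 121 of the 225 positions (53.8%). Sox5 and Sox6 were identical at 186 positions (82.7%), Sox9 and Sox5 at 140 (62.2%), and Sox9 and Sox6 at 131 (58.2%). Over whole coding transcripts, the longest run of identical bases was 23 between Sox5 and Sox6, 18 between Sox9 and Sox5, and 14 between Sox9 and Sox6. No stretch of 50 bases was shared by any pair. The read length is not given in the sources used here.

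Total counts ranged from 15113675 to 19606082 per library. Of the chondrocyte markers checked, all 13 were detected and passed the filter on low counts. They are Sox9 itself and genes of the target list below, so they are no separate evidence. Their summed level was 6145 to 9974 CPM in H3K9M and 6092 to 17412 CPM in H3WT, where CPM are depth-normalised read counts scaled by the trimmed mean of M-values (TMM). H3WT replicate 2 held the highest sum, and Col2a1 alone gave 4913 to 14110 CPM by library. Libraries did not separate by group on the first principal component (35.5% of the variance), where H3K9M replicate 3 (51.0) and H3WT replicate 2 (49.1) lay together and apart from the other four (-56.2 to 10.4). They did on the second (28.8%), with 19.0 to 39.8 in H3K9M and -71.5 to -11.4 in H3WT. Skeletal muscle markers differed between libraries. Their sum over 12 genes was 168 and 239 CPM in H3K9M replicates 1 and 3, against 27.1 in H3K9M replicate 5 and 14.8 to 32.0 in H3WT, with 3 of the 12 at 0 counts in all libraries. Acta1 was most of the sum in H3WT replicates 1 and 4 (26.2 and 24.0 CPM), against 5.97 CPM in H3K9M replicate 5. All H3K9M libraries, replicate 5 among them, lay above all H3WT libraries in 6 of the 12, beside 10.7% of all tested genes. Osteoblast markers summed to 501 to 2414 CPM, highest in H3K9M replicate 3, where Spp1 alone was 2401. Among the other markers, Alpl was lowest in that library (2.46 CPM) and Dmp1 highest (1.30 CPM). Ibsp was the 1 of 8 osteoblast markers that was lower in every H3K9M library than in any H3WT library, beside 8.68% of all tested genes. Glial markers summed to 6.85 to 62.9 CPM, of which S100b, also a chondrocyte gene, was 6.06 to 60.8, while the glial factor Sox10 had 0 counts. Macrophage markers summed to 5.83 to 22.6 CPM, endothelial markers to at most 1.40 CPM and erythroid markers to at most 0.882 CPM.

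None of the 3 members passed the test between H3K9M and H3WT, and for each the groups overlapped. Sox9 was the nearest to it, with a mean 1.51-fold higher in H3WT. Sox6 pointed the same way with a smaller difference, and Sox5 pointed the other way. No gene of the table was called at an adjusted p under 0.05 by edgeR's quasi-likelihood test (0 of 13761, 0%), while 1677 (12.2%) had an unadjusted p under 0.05 (5.77% lower and 6.42% higher in H3K9M) and the groups did not overlap in 2671 (19.4%). DESeq2's Wald test called 367 of the 15154 genes to which it gave an adjusted p (2.42%), none of them a member. In bulk RNA, fewer cells of a type and less RNA per cell cannot be told apart.

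Sox9, the factor at the head of the trio, had 114 CPM in H3K9M replicate 1, 150 in replicate 3 and 181 in replicate 5. In H3WT it had 145 CPM in replicate 1, 285 in replicate 2 and 244 in replicate 4. H3WT replicates 2 and 4 lay above every H3K9M library, and H3WT replicate 1 lay within the H3K9M range. The means were 148 ± 33.8 CPM and 225 ± 72.0 CPM (SD, n = 3 each), a log2 fold change of -0.60 (SE 0.27, 95% interval -1.23 to 0.03). The unadjusted p was 0.0605 and the adjusted p 0.429 (edgeR). This p ranked 1941 among 13761 genes. An exact permutation test of log2 CPM, two-sided, gave p = 0.3, where 3 libraries against 3 cannot go below 0.1. With DESeq2 the adjusted p was 0.274. Leaving out H3WT replicate 2 brought the log2 fold change to -0.38, and leaving out H3WT replicate 1 to -0.83 (adjusted p 0.533 and 0.458, edgeR).

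Sox5 had 24.1, 59.3 and 27.7 CPM in H3K9M replicates 1, 3 and 5, and 21.4, 48.8 and 23.1 CPM in H3WT replicates 1, 2 and 4. One library in each group stood above the rest, H3K9M replicate 3 and H3WT replicate 2. These are the libraries that lay together on the first principal component. The H3K9M mean was 37.0 ± 19.4 CPM and the H3WT mean 31.1 ± 15.4 CPM (SD, n = 3 each), which gave a log2 fold change of 0.25 (SE 0.45, 95% interval -0.81 to 1.32, adjusted p 0.873, edgeR; exact permutation p = 0.5). Its sign rested on H3K9M replicate 3, without which it turned to -0.26. Leaving out H3WT replicate 2 gave 0.75, and leaving out both gave 0.23, a fit chosen after the data were seen. Left out singly, H3WT replicate 1 gave 0.04, H3WT replicate 4 gave 0.08, H3K9M replicate 1 gave 0.49 and H3K9M replicate 5 gave 0.43.

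Sox6, the other SOXD factor of the trio, had 54.8, 47.8 and 79.9 CPM in H3K9M replicates 1, 3 and 5. The H3WT values were 44.8, 98.9 and 76.5 CPM in replicates 1, 2 and 4. H3WT held both the lowest and the highest library. The means were 60.8 ± 16.9 CPM and 73.4 ± 27.2 CPM (SD, n = 3 each), a log2 fold change of -0.27 (SE 0.31, 95% interval -0.99 to 0.45, adjusted p 0.780, edgeR; exact permutation p = 0.7). Leaving out H3WT replicate 2 turned the difference to 0.016, and leaving out H3WT replicate 1 moved it to -0.53. Single-library removal also gave -0.51 (H3K9M replicate 5), -0.11 (H3K9M replicate 3), -0.20 (H3K9M replicate 1) and -0.24 (H3WT replicate 4). Sox6 and Sox5 are also active outside cartilage, Sox6 in skeletal muscle among other tissues. In H3K9M replicates 1 and 3, where the muscle markers were high, Sox6 was lower than in H3K9M replicate 5 (79.9 CPM). Sox5 had 59.3 CPM in replicate 3, with the highest muscle sum, and 24.1 and 27.7 CPM in replicates 1 and 5. The part of the muscle markers in the Sox6 and Sox5 levels was not tested.

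**Figure D1:**
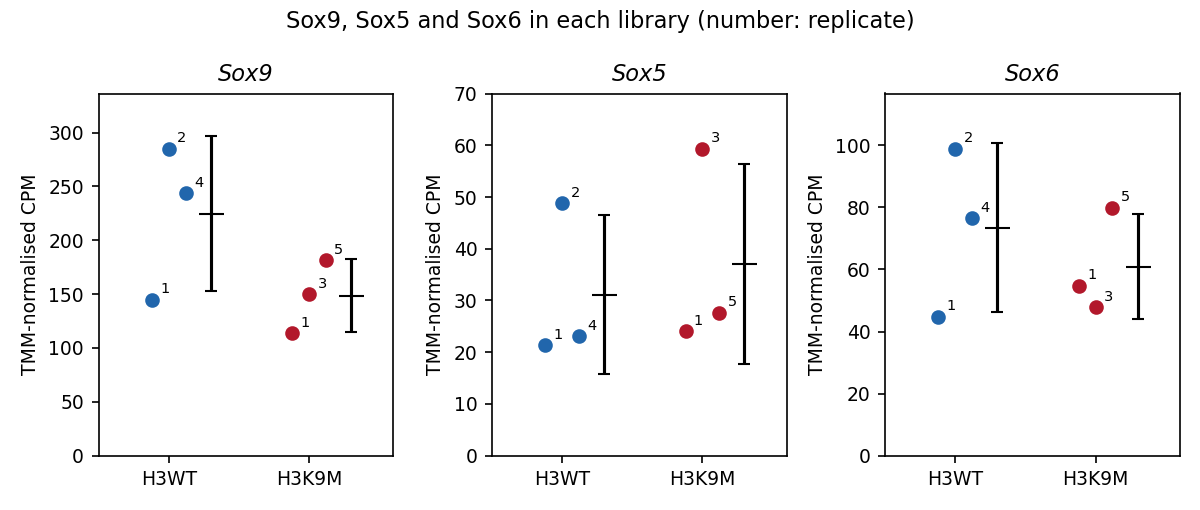
TMM-normalised CPM of Sox9, Sox5 and Sox6 in each of the 6 libraries, on a linear axis that starts at 0. Points are libraries numbered by replicate, and the black bar gives mean ± SD (n = 3). Groups overlap for each gene, H3WT replicate 2 is the highest H3WT library for all 3, and Sox5 stands out in H3K9M replicate 3 (59.3) and H3WT replicate 2 (48.8).

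The balance between members was examined as the ratio of read counts within a library, which does not depend on how libraries are scaled. Per 100 reads of Sox9 there were 21.2, 39.5 and 15.3 reads of Sox5 in H3K9M replicates 1, 3 and 5, against 14.8, 17.1 and 9.47 in H3WT replicates 1, 2 and 4. H3K9M replicates 1 and 3 lay above every H3WT library and H3K9M replicate 5 within their range. The mean log2 ratio was -2.10 ± 0.70 in H3K9M and -2.90 ± 0.44 in H3WT (SD, n = 3 each), a difference of 0.80 (exact permutation p = 0.2, adjusted p = 0.3 over the 3 pairs). Reads of Sox6 per 100 of Sox9 were 48.1 in H3K9M replicate 1, 31.8 in replicate 3 and 44.1 in replicate 5. The H3WT values were 30.9, 34.7 and 31.4 (replicates 1, 2 and 4). The H3WT libraries lay close together (log2 ratio -1.63 ± 0.09) and the H3K9M libraries did not (-1.30 ± 0.32; difference 0.33, exact permutation p = 0.2, adjusted p = 0.3). For Sox5 against Sox6 the difference in log2 ratio was 0.47 (exact permutation p = 0.6). Sox5 outnumbered Sox6 only in H3K9M replicate 3, with 124 reads per 100 of Sox6 against 30.2 to 49.4 in the other 5 libraries. Without that library the difference was -0.087. None of these 3 differences in balance passed, and this design cannot give an exact p below 0.1.

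**Figure D2:**
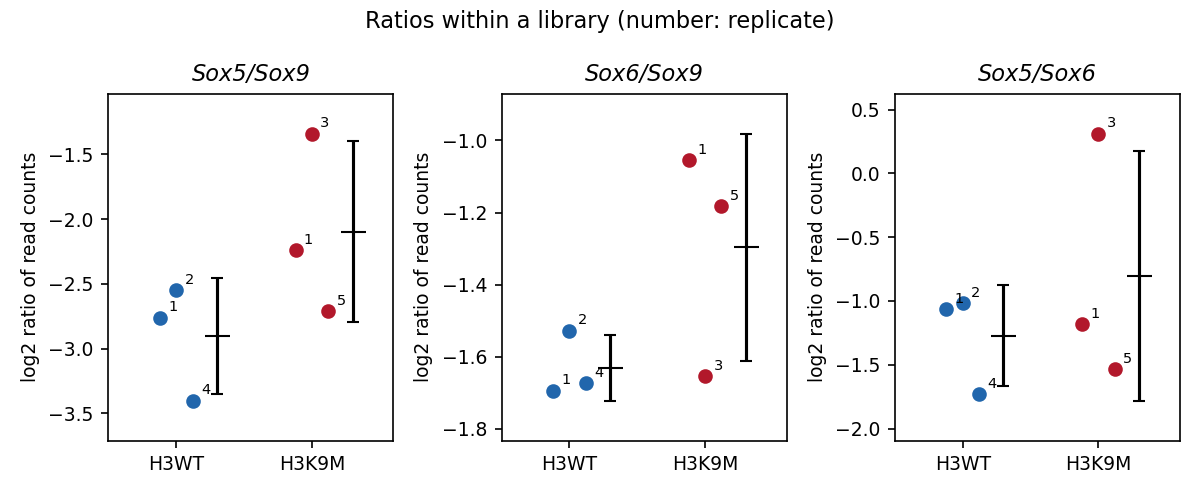
Log2 ratio of read counts between members within each library, with mean ± SD (n = 3) as black bars and replicate numbers beside the points. In H3K9M, replicate 3 holds the highest Sox5/Sox9 and Sox5/Sox6 ratios, while its Sox6/Sox9 ratio lies with the H3WT libraries.

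The read ratios above take no account of gene length. Levels were therefore also compared between genes after division by length, as CPM per kb of exon in GENCODE M21. On this scale Sox9 had 35.9 ± 8.17 in H3K9M and 54.3 ± 17.4 in H3WT (SD, n = 3 each). Sox6 had 4.10 ± 1.14 and 4.95 ± 1.83, and Sox5 2.58 ± 1.35 and 2.16 ± 1.07. Sox9 was therefore 7.45 to 11.6 times the level of Sox6 and 8.80 to 36.7 times that of Sox5, by library. Sox5 and Sox6 overlapped over libraries, with Sox6 the higher of the pair in 5 of 6. Long alternative exons weigh on the SOXD genes. Dividing by the longest transcript instead (7.24 kb in place of 14.4 kb for Sox5, 8.67 in place of 14.8 for Sox6) gave Sox9 at 4.35 to 6.78 times Sox6 and 4.44 to 18.5 times Sox5.

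The other SOX genes put these levels in order. Of 17 listed, 9 had a count and 5 passed the filter on low counts. Sox9 was the highest SOX gene in 6 of 6 libraries. Sox4, a SOXC gene of mesenchymal progenitors, came second with 17.7 ± 5.84 CPM per kb in H3K9M and 22.9 ± 7.78 in H3WT (SD, n = 3 each). Sox12, also SOXC, had 5.96 ± 0.639 and 9.90 ± 2.78, and its range over libraries overlapped that of Sox6 with either length. Sox8, the SOXE relative of Sox9, was low, with 4, 13 and 10 counts in the H3K9M libraries (replicates 1, 3 and 5) and 13, 47 and 40 counts in the H3WT libraries (replicates 1, 2 and 4). Sox10, the remaining SOXE gene, had 0 counts in all 6 libraries. Over the 5 tested genes the median log2 fold change was -0.37, and all 5 were lower in H3K9M, where 50.4% of all tested genes were lower. The groups did not overlap in Sox12 and Sox8, in a table where H3K9M lay below H3WT in 8.68% of genes. The log2 fold change was -0.73 for Sox12 (SE 0.22, adjusted p 0.277, edgeR), -1.95 for Sox8 (SE 0.85, adjusted p 0.410) and -0.37 for Sox4 (SE 0.30, adjusted p 0.663). Without H3WT replicate 1, 3 of 6 tested genes were lower.

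**Figure D3:**
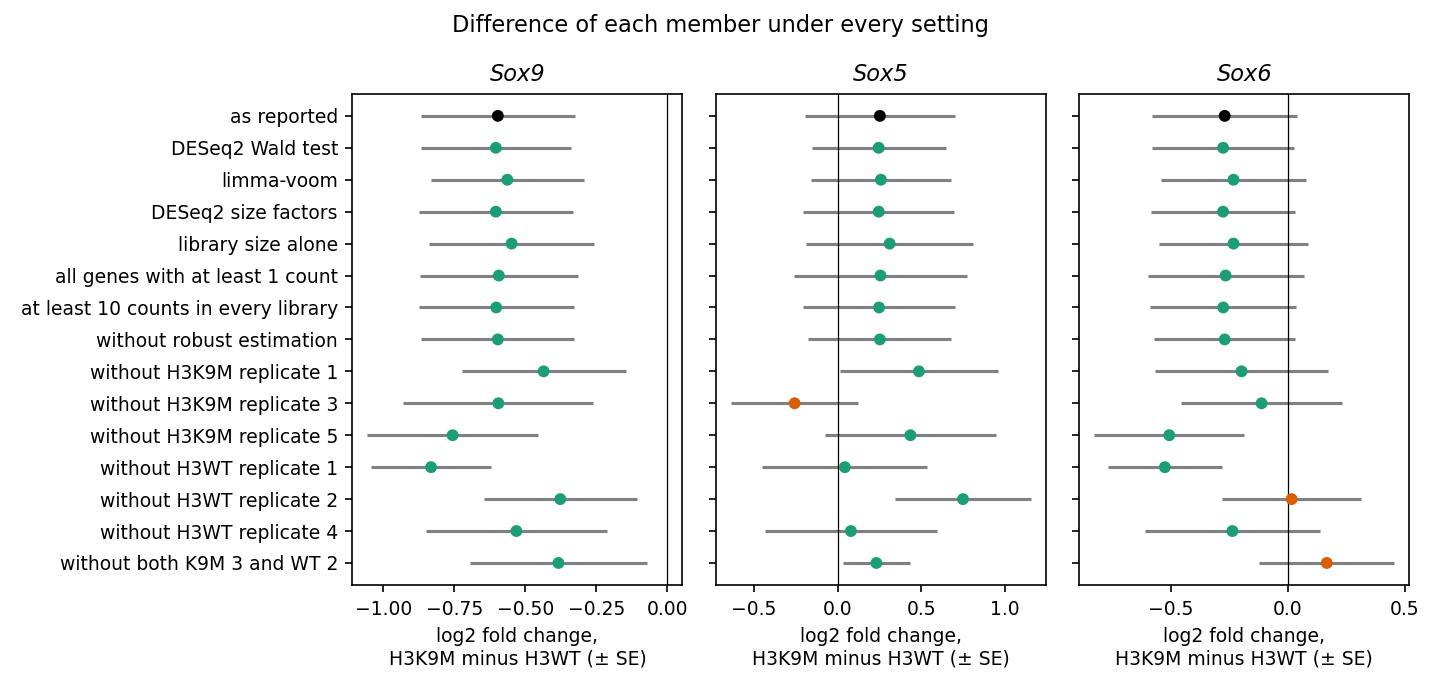
Log2 fold change (H3K9M minus H3WT) with its SE for each member in the reported fit (black) and under each other setting. Orange marks a sign opposite to the reported fit. Sox9 stays between -0.83 and -0.38, whereas Sox5 turns negative without H3K9M replicate 3 and Sox6 turns positive without H3WT replicate 2.

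Over the 6 libraries the highest correlation between members was that of Sox9 and Sox6, with no test of the difference between pairs. Pearson's r of log2 CPM was 0.835 for Sox9 and Sox6 (exact permutation p = 0.0528, adjusted p = 0.158 over 3 pairs) and Spearman's rho was 0.771 (exact permutation p = 0.103, adjusted p = 0.308). After each group's mean was subtracted r was 0.883. Leaving out H3WT replicates 2 and 4, the farthest from the median of Sox9, gave r = 0.535 over 4 libraries. Taking out the farthest libraries narrows the range of Sox9, which can by itself lower r. For Sox9 and Sox5 r was 0.267 (exact permutation p = 0.607, adjusted p = 0.699) and rho 0.314 (exact permutation p = 0.564), with r = 0.224 without the same libraries. Sox5 and Sox6 gave r = 0.147 (exact permutation p = 0.699) and rho = 0.371 (exact permutation p = 0.497). Without H3K9M replicate 3 and H3WT replicate 2 that r was 0.724 over 4 libraries. Values from one library share its RNA and its scaling factor, and no pair passed after adjustment.

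The genes that SOX9, SOX5 and SOX6 are known to activate in cartilage were then set beside them, from a list of 22. All 22 passed the filter on low counts. In the reported fit 21 of 22 were lower in H3K9M, with a median log2 fold change of -1.09, beside 50.4% and -0.003 over all tested genes. The differences ran from -2.74 (Snorc, a chondrocyte proteoglycan) to 0.66 (Mia, secreted by chondrocytes). None passed the adjusted threshold, and 4 had an unadjusted p under 0.05, all lower in H3K9M (5.77% of all genes were lower at that p). The values by library show where this lay. Relative to each gene's mean, the list's median on the log2 scale stood at -0.92, 1.82 and 0.45 in the H3WT libraries (replicates 1, 2 and 4), so replicate 2 was the highest. The H3K9M libraries stood at -1.08 (replicate 1), 0.00 (replicate 3) and -0.03 (replicate 5). Without H3WT replicate 2, 15 of 22 were lower and the median was -0.18. Without both H3WT replicate 2 and H3K9M replicate 3, 15 of 21 were lower with a median of -0.33. Without H3WT replicate 1 the median was -1.55, with 21 lower. With limma-voom on all libraries 19 of 22 were lower, the median was -0.68 and 1 gene had an unadjusted p under 0.05.

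Among the collagens of the cartilage fibril, Col2a1 (collagen II) had 4971, 5521 and 8421 CPM in H3K9M replicates 1, 3 and 5, and 4913, 14110 and 9904 CPM in H3WT replicates 1, 2 and 4. The H3WT values spanned the whole H3K9M range. Col9a1, a chain of the fibril-surface collagen IX, had 25.2, 38.1 and 68.6 CPM against 38.3, 291 and 161 CPM, which is -1.89 on the log2 scale (SE 0.75, adjusted p 0.395, edgeR). H3WT replicates 2 and 4 stood above all H3K9M libraries. Col9a2, another chain of collagen IX, had 7.64, 23.5 and 11.9 CPM against 14.7, 100.1 and 74.9 CPM, or -2.13 on the log2 scale (SE 0.76, adjusted p 0.357, edgeR). For Col11a2, a chain of collagen XI, it was -1.26 (SE 0.81).

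Of the noncollagenous targets, Matn4 (matrilin 4, an adapter protein of the matrix) had the smallest p of the list. It had 2.08, 1.21 and 0.867 CPM in H3K9M replicates 1, 3 and 5 and 2.36, 14.8 and 6.89 CPM in H3WT replicates 1, 2 and 4, which is -2.54 on the log2 scale (SE 0.70, adjusted p 0.244, edgeR). It was the single gene of the 22 whose groups did not overlap, beside 8.68% of all tested genes with H3K9M below H3WT. Matn1, matrilin 1, had 2.88, 6.18 and 13.8 CPM against 3.54, 72.8 and 45.4 CPM, a difference of -2.41 (SE 1.07, adjusted p 0.439). Fgfr3, a growth factor receptor of growing cartilage, had 10.4, 20.3 and 32.6 CPM against 32.3, 83.5 and 89.4 CPM, or -1.69 on the log2 scale (SE 0.52, adjusted p 0.297, edgeR). Its lowest H3WT library lay just below the highest H3K9M library, so the groups overlapped. For Acan, which encodes aggrecan, the log2 fold change came to -0.26 (SE 0.69), and for Hapln1, the link protein that binds aggrecan to hyaluronan, -1.08 (SE 0.55). DESeq2 called 2 of the 22, Matn4 and Fgfr3, both lower in H3K9M, beside 1.21% of all genes called lower.

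**Figure D4:**
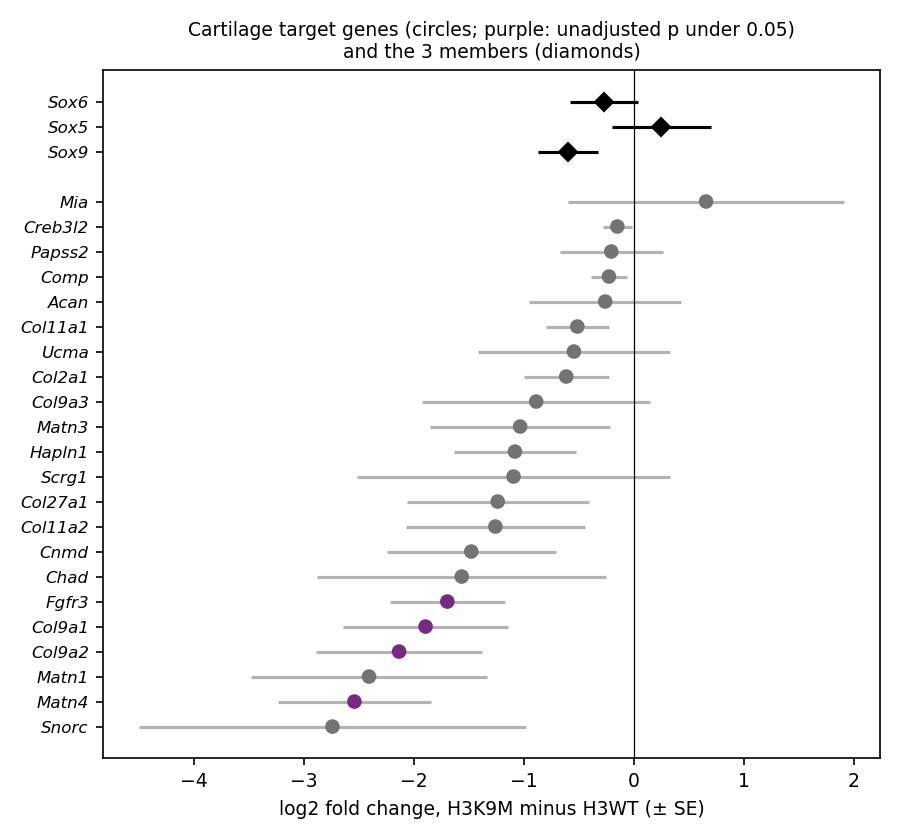
Log2 fold change (H3K9M minus H3WT, ± SE) of the 22 target genes and of the members. 21 target genes lie left of 0, and purple marks the 4 with an unadjusted p under 0.05 (Matn4, Fgfr3, Col9a2 and Col9a1).

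The target genes were also compared with each member by library. With Sox9, 19 of 22 had a Pearson's r above 0.5 over the 6 libraries, against 17.1% of all tested genes, and the median r was 0.852. With Sox6 the count was 20 of 22 (14.2% of all genes, median r 0.736), and with Sox5 it was 10 of 22 (20.9% of all genes, median r 0.388). After each group's mean was subtracted, the counts were 20 with Sox9, 20 with Sox6 and 14 with Sox5. The share of all genes above 0.5 was not computed for that scale. These counts therefore have no background and cannot be set against those before. The closest to Sox9 were Col9a1 (r = 0.990), Matn1 (0.984) and Col2a1 (0.957), while Comp, a matrix protein shared with tendon, had 0.395. These r are descriptions with no test: the genes share libraries and scaling, and the median of the list was highest in H3WT replicate 2, as Sox9 and Sox6 were.

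**Figure D5:**
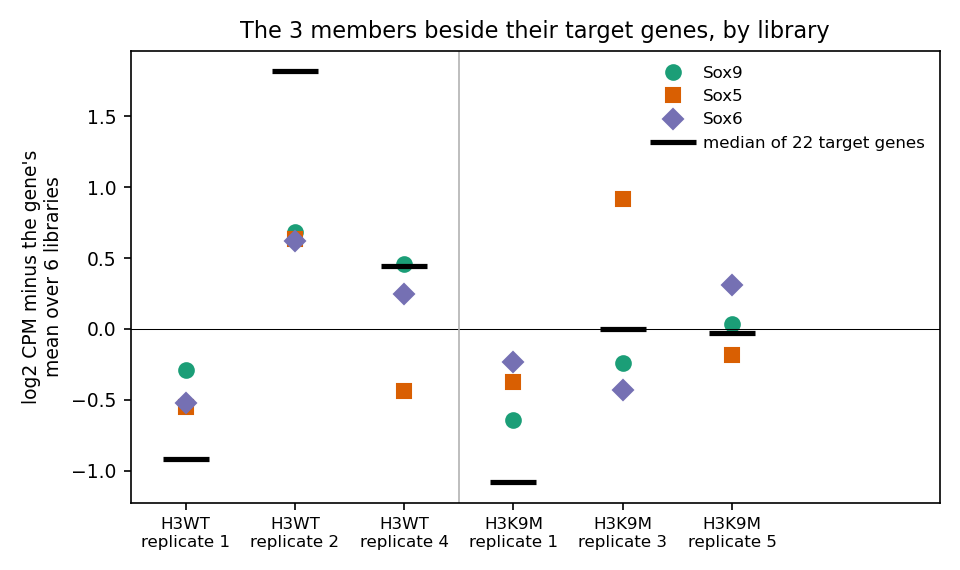
Log2 CPM of each member relative to its own mean over the 6 libraries, beside the median of the 22 target genes on the same scale (black bars). All 3 members and the targets are high in H3WT replicate 2, whereas in H3K9M replicate 3 Sox5 is 0.92 above its mean with Sox9 and Sox6 below theirs.

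Over the whole table, the genes most like each member were ranked by r over the 6 libraries among 9450 genes of at least 10 CPM. For Sox9 they were Mob3a (0.990), Col9a1 (0.990), Elf1 (0.986), Usp31 (0.984) and Matn1 (0.984). The list for Sox5 was Hfe (0.997), Adss (0.996), Errfi1 (0.995), Klk8 (0.993) and Eps8 (0.993). Klk8, a secreted protease, had 93.9 CPM in H3K9M replicate 3 and 34.3 in H3WT replicate 2, against 2.69 to 8.16 in the other 4 libraries, the same high libraries as Sox5. For Sox6 the ranking gave Sema3c (0.992), Ehd2 (0.990), Sesn1 (0.987), Zfp120 (0.982) and Slc35a2 (0.974). No gene stood in more than one of these lists. They were picked as the highest of 9450 over 6 points, so their size is no test.

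Promoters were read because the target genes had high r with Sox9. The windows are the 250 bases before a RefSeq start in GRCm38.p6, given 5′ to 3′ along the gene. Capitals mark ACAATG or ACAAAG on either strand, forms of the core that SOX proteins bind, chosen with the Sox5 and Sox6 windows in view. The 2 forms do not overlap each other in these windows. Of the 3 members, 2 had an entry among these windows, Sox5 and Sox6. Sox9 had none, so its promoter was not read. The windows shown are of Sox5 and Sox6, and of Col9a1 and Matn1, the target genes closest to Sox9. The window of Sox5 is chr6:143947107-143947356 (minus strand), the one of Sox6 chr7:115995087-115995336 (minus strand, 1 of 6), that of Col9a1 chr1:24177360-24177609 (plus strand, 1 of 2), and that of Matn1 chr4:130944135-130944384 (plus strand).
Sox5: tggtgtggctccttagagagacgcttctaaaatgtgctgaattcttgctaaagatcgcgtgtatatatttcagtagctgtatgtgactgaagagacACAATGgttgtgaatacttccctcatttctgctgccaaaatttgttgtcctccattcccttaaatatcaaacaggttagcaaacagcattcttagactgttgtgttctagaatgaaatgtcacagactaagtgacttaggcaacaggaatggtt
Sox6: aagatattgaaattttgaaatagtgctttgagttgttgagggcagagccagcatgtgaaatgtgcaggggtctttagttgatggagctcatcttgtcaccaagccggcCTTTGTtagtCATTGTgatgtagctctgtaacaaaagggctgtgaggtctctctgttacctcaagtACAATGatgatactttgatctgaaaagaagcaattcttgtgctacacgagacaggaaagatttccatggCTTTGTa
Col9a1: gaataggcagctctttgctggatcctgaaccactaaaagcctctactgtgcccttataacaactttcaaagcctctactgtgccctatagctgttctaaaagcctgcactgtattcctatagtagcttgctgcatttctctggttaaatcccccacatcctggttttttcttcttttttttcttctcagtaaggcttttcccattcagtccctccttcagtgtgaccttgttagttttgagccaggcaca
Matn1: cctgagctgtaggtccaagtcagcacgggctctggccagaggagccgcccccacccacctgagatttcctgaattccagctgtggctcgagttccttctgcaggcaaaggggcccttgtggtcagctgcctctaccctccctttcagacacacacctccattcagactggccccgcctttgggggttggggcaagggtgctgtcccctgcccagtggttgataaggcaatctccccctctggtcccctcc
A match stood in the 1 window of Sox5, 154 bases before the start, and in 5 of the 6 windows of Sox6. Both member windows shown lie inside the span of their gene given above, before an internal start and not at the gene's 5′ end. The Sox6 window shown was picked for having the most matches, since the other 5 held 0 to 3. It held 4, at 142, 132, 76 and 7 bases before the start. Of the 21 windows of target genes (17 of the 22 had an entry), 0 held a match, while 25.2% of all 32851 windows did (10.7% with ACAATG, 16.5% with ACAAAG). Other forms of the core were not searched, so the 0 does not show that these windows lack it. The matches of Sox5 and Sox6 are no test, because the 2 forms were chosen with those windows in view. A match is not a binding site, and these genes are known to be driven largely by enhancers outside such windows.

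Most cofactors of SOX9 and SOX6 differed by small amounts between groups. All 15 passed the filter, and none passed the adjusted threshold in the reported fit. In H3K9M 14 were lower with a median log2 fold change of -0.11, beside 50.4% and -0.003 over all tested genes. With library size alone as the scaling 12 of 15 were lower, and with limma-voom 11. The smallest p-values belonged to the acetyltransferases Ep300 and Crebbp, which SOX9 recruits, and to the demethylase Phf2. Ep300 had 92.8, 82.2 and 101.8 CPM in H3K9M replicates 1, 3 and 5 and 131, 116 and 118 CPM in H3WT replicates 1, 2 and 4 (log2 fold change -0.40, SE 0.12, adjusted p 0.280, edgeR). Crebbp had 89.2, 89.0 and 88.2 CPM against 126, 98.9 and 121 CPM (-0.37, SE 0.13, adjusted p 0.306), and the difference for Phf2 was -0.31 (SE 0.11, adjusted p 0.320). The groups did not overlap in these 3 genes, in a table where 8.68% of genes lay lower in H3K9M without overlap. The largest difference was that of Arid5b, -0.90 (SE 0.45, adjusted p 0.470, edgeR). It had 178, 105 and 144 CPM in H3K9M against 340, 109 and 351 CPM in H3WT, so the groups overlapped. Arid5b alone of the list was called without both H3K9M replicate 3 and H3WT replicate 2. That fit, chosen after the data were seen, called 302 of 13821 genes.

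Of 23 other transcription factors of the skeleton, 20 passed the filter, with 12 lower and 8 higher in H3K9M and a median log2 fold change of -0.09. Over all tested genes 50.4% were lower. None passed the adjusted threshold. Nkx3-2, a repressor that sustains chondrocytes and is linked to Sox9 in early cartilage, had 12, 29 and 16 counts in H3K9M replicates 1, 3 and 5. It had 92, 131 and 67 counts in H3WT replicates 1, 2 and 4, so that the groups did not overlap (log2 fold change -2.38, SE 0.50, adjusted p 0.194, edgeR). DESeq2 called Nkx3-2 and no other gene of this list, beside 1.21% of all genes called lower. For Shox2, a limb patterning factor, the difference was -0.42 (SE 0.16, adjusted p 0.367) and for Pax1, a factor of the axial skeleton, 1.49 (SE 0.58, adjusted p 0.371). Of the tested genes of the list, 2 lay lower in H3K9M without overlap, Nkx3-2 and Mef2c, beside 8.68% of all tested genes. Pax1 was the 1 that lay higher without overlap, beside 10.7% of all tested genes. Runx2, the factor of chondrocyte hypertrophy and bone, differed by -0.09 (SE 0.27) and was named after its value was seen.

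Noncoding genes at the SOX loci were scarce. Of 9 listed, 5 had a row in the table under that symbol. The antisense genes Sox5os3 and Sox5os4 had 0 counts, and Sox6os had 6 in H3K9M replicate 1, 3 in H3WT replicate 4 and 0 in the other 4 libraries. Whether the counting used strand is not given in the sources used here, and without it reads of a gene and of its antisense partner cannot be told apart. 2610035D17Rik, a long noncoding RNA of the Sox9 locus, had 57, 69 and 62 counts in the H3K9M libraries and 45, 74 and 38 counts in the H3WT libraries (log2 fold change 0.26, SE 0.44, adjusted p 0.867, edgeR). Of the 18 nearest genes (3 on each side of each member), 10 had 0 counts in all libraries and 3 were tested. Bcat1, beyond Sox5, had a log2 fold change of 0.36 (adjusted p 0.725), and 1110004F10Rik and Plekha7, beyond Sox6, had 0.15 and 0.37 (adjusted p 0.621 and 0.626, edgeR). None of the 3 had an unadjusted p under 0.05.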

How the data were processed

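The authors deposited 1 table of read counts by gene symbol, not normalized, judging by whole numbers with differing totals per library. Per the submitters' processing notes the tools were HISAT2, featureCounts and DESeq2 with the build mm10. Versions, annotation and strand setting are not given in the sources used here. Every column matched 1 title, with 0 columns outside the series and 0 rows without a gene name. Labels gave no batch or date. No replicate pair was a repeated library (chi-square per degree of freedom 28.3 or more).

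Counts were fitted in R 4.3.3 with edgeR 4.0.16 (filterByExpr, TMM, glmQLFit with robust estimation, glmQLFTest) over 6 libraries and 13761 genes, with Benjamini-Hochberg adjustment and a threshold of 0.05. An SE is the log2 fold change over the root of F. Alternatives used DESeq2 1.42.0, limma-voom (limma 3.58.1), other scalings and filters, and each library left out in turn. Scripts were tested on simulated data. Log2 CPM used a prior count of 2. Symbols matched RefSeq GRCm38.p6 for 32501 of 35976 genes. Cnmd and Snorc stand in the table under older symbols.

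The members and gene lists were chosen with earlier results of these data known. Named genes were the members, the 3 smallest p-values of each list, 6 preset targets, neighbours, and the 5 genes most like each member. Other genes were named after their values were seen. Intervals cover the spread between libraries.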

Additional observations from a re-analysis of the deposited data

How the results depend on the processing

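No alternative brought a member past the adjusted threshold (14 per member). The log2 fold change of Sox9 kept its sign in all 14, between -0.83 and -0.38, both from fits that left out a library. With single libraries removed, that of Sox5 lay between -0.26 and 0.75, and it turned in 1 of 14, without H3K9M replicate 3. For Sox6 the range was -0.53 to 0.016, and the sign turned in 2 of 14, without H3WT replicate 2 and, at 0.17, without both that library and H3K9M replicate 3. The last setting and all settings for gene lists were chosen after the data were seen. With a library left out, the difference in log2 ratio ran from 0.43 to 1.11 for Sox5 to Sox9, 0.21 to 0.51 for Sox6 to Sox9 and -0.087 to 0.84 for Sox5 to Sox6. The count of genes past the threshold, 0 as reported, was 367 with DESeq2, 36 with every gene that had a count, 302 without both libraries, and 0 to 91 when 1 was left out, the 91 without H3WT replicate 2. The cause was not tested. The median of all genes moved by less than 0.1 on the log2 scale under each scaling. No paired analysis was possible because the groups share only the replicate number 1. Depth did not limit Sox9, Sox5 or Sox6, each with at least 360 counts in every library, but Sox8, Matn4, Snorc and Nkx3-2 rest on few counts.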

Other observations

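The libraries in which Sox5 was highest, H3K9M replicate 3 (59.3 CPM) and H3WT replicate 2 (48.8 CPM), belong to different groups, and both lay at the same end of the first principal component of all genes (51.0 and 49.1). Sox9 had 150 CPM in the first and 285 CPM in the second. S100b, a calcium-binding protein of glia and chondrocytes, had 44.3 and 60.8 CPM in these libraries and 6.06 to 23.0 CPM in the other 4.

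The muscle regulator Myod1 had 19.5, 57.0 and 4.29 CPM in H3K9M replicates 1, 3 and 5 and 0, 1.04 and 0 CPM in H3WT replicates 1, 2 and 4, and Des, which encodes desmin, had 81.0, 98.0 and 8.78 CPM against 4.88, 6.80 and 1.71 CPM. These genes were named after their values were seen. Of the 12 muscle markers, 9 had a count, and 6 of the 12 passed the filter on low counts. All H3K9M libraries lay above all H3WT libraries in Myod1, Myog, Des, Myh3, Tnnt3 and Tmem8c, whereas the groups overlapped in Acta1, Tnnt1 and Ckm. The same held for 10.7% of all tested genes, a share that leaves out genes under the filter. In H3K9M replicate 5, Myog had 4 counts and Tmem8c 3, against 0 in every H3WT library. Neither their relation to Sox5 nor to Sox6 was tested.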
